A study of Homo sapiens with 6 samples.

Results

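Integrins are the cell surface receptors that hold epithelial cells to the extracellular matrix, and laminins are the trimeric proteins of the basement membrane to which many of them bind. The genes of their subunits were examined in HSC3, a cultured cell line from a human oral squamous carcinoma, after treatment with E7386, a small molecule described as a blocker of the contact between β-catenin and its coactivator CBP. Members were the rows of the deposited expression table whose symbol in the platform annotation is that of an integrin alpha subunit, of ITGB1 to ITGB8, or of a laminin alpha, beta or gamma chain. The rule found 36 genes among 23786 rows, namely 18 integrin alpha, 8 integrin beta and 10 laminin genes.

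An integrin is a dimer of 1 alpha and 1 beta subunit, and the pairing sets which ligand is bound. In stratified epithelium the dimer of ITGA6 and ITGB4 sits in the hemidesmosome and grips laminin-332, the anchor of basal cells. Dimers that share ITGB1 bind laminin (with ITGA3), fibronectin (with ITGA5) or collagen (with ITGA1 or ITGA2). ITGAV pairs with several beta subunits, and its dimers with ITGB6 and ITGB8 are known activators of latent TGF-β. A further set of integrins, most of them with ITGB2 or ITGB7, is typical of leukocytes.

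The study comprised 6 wells of this line, 3 given 0.1% dimethyl sulfoxide (DMSO) and 3 given 0.1 μM E7386 dissolved in DMSO. Per the labels' protocols, treatment began 12 to 24 hours after seeding, and RNA was taken after 48 to 64 hours. All values are log2 signals on whole-transcript arrays, normalized with RMA, so a difference of 1 is a doubling. The labels call the wells biological replicates but do not place them in separate experiments, so every p-value here rests on well-to-well spread, which may in part be technical. In bulk RNA, a change in the share of cells that transcribe a gene and a change in transcripts per cell cannot be told apart.

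Across rows, 2 wells of the same treatment correlated at 0.992 to 0.995, and wells of unlike treatment at 0.982 to 0.985. Levels of marker genes were those of an epithelial line: all 10 measured epithelial markers lay above the median row of the table, at 3.75. Below it lay 7 of 8 leukocyte, 6 of 8 fibroblast, 6 of 7 endothelial and 4 of 4 platelet markers. The 4 exceptions were CD68, COL1A1, THY1 and CLDN5. Of the epithelial markers KRT14, KRT5 and JUP fell with E7386 and none rose, by the test described below. These are 30% of the 10. Among all rows above the median row 33.2% changed by that test, and 15.1% fell.

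The members fell into a measured and a dim set, as the plot of values by well shows. Of the 36, 17 lay above the median row and 19 below it, where values ran from 1.42 to 3.55 and expression could not be told from background. The 17 comprised the keratinocyte integrins ITGA2, ITGA3, ITGA5, ITGA6, ITGAV, ITGB1, ITGB4, ITGB5, ITGB6 and ITGB8, the laminin genes LAMA5, LAMB1, LAMB2, LAMB3 and LAMC1, and ITGA1 and ITGB2. Probes of different genes respond differently, so these levels give no order of abundance between genes.

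**Figure D1:**
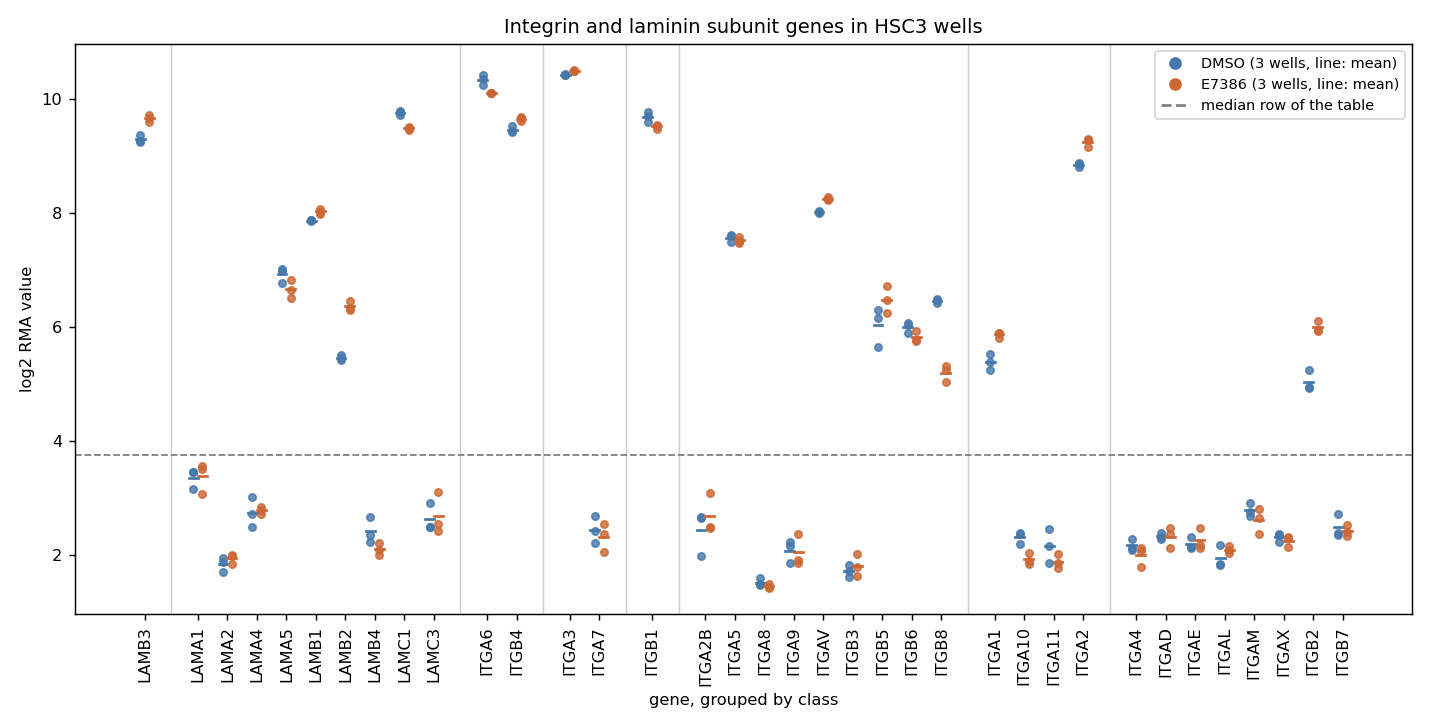
Log2 RMA values (y axis) of the 36 subunit genes (x axis) in the 3 DMSO wells and the 3 E7386 wells, each point a well and each short line a group mean; the blocks from left to right are LAMB3, other laminin chains, the hemidesmosome pair, other laminin-binding integrins, ITGB1, fibronectin-binding, collagen-binding and leukocyte integrins. The dashed line is the median row at 3.75, and 19 genes lie below it; ITGB8 is lower and LAMB2 and ITGB2 are higher in all 3 E7386 wells.

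Treatment with E7386 changed a few subunits and left most without a call. The test was that of limma, a linear model fitted over all rows, and a gene counts as called below an adjusted p of 0.05. Of 36 members 7 were called, or 19.4%, against 18.6% of all rows. LAMB2, ITGB2, ITGA1, ITGA2 and LAMB3 rose, which is 13.9% of members against 9.93% of all rows called higher. ITGB8 and ITGA10 fell, 5.56% of members against 8.69% of all rows called lower. These shares are near the background and say nothing particular about the members.

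The shares called in either direction were also close within each range of level. Above the median row 6 of 17 members were called, or 35.3%, against 33.2% of all such rows. By direction the shares there were less close. Called higher were 5, or 29.4% against 18.2% of such rows, and called lower 1, or 5.88% against 15.1%. Below it 1 of 19 was called, or 5.26%, against 4.0% of such rows. The median difference over all members was 0.0066, against -0.016 over all rows. For members above the median row it was 0.159, against 0.0237 for all such rows. In 15 members the 3 values of one group lay wholly above those of the other, or 41.7% against 35.2% of all rows. The plot of differences gives each member with its interval.

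**Figure D2:**
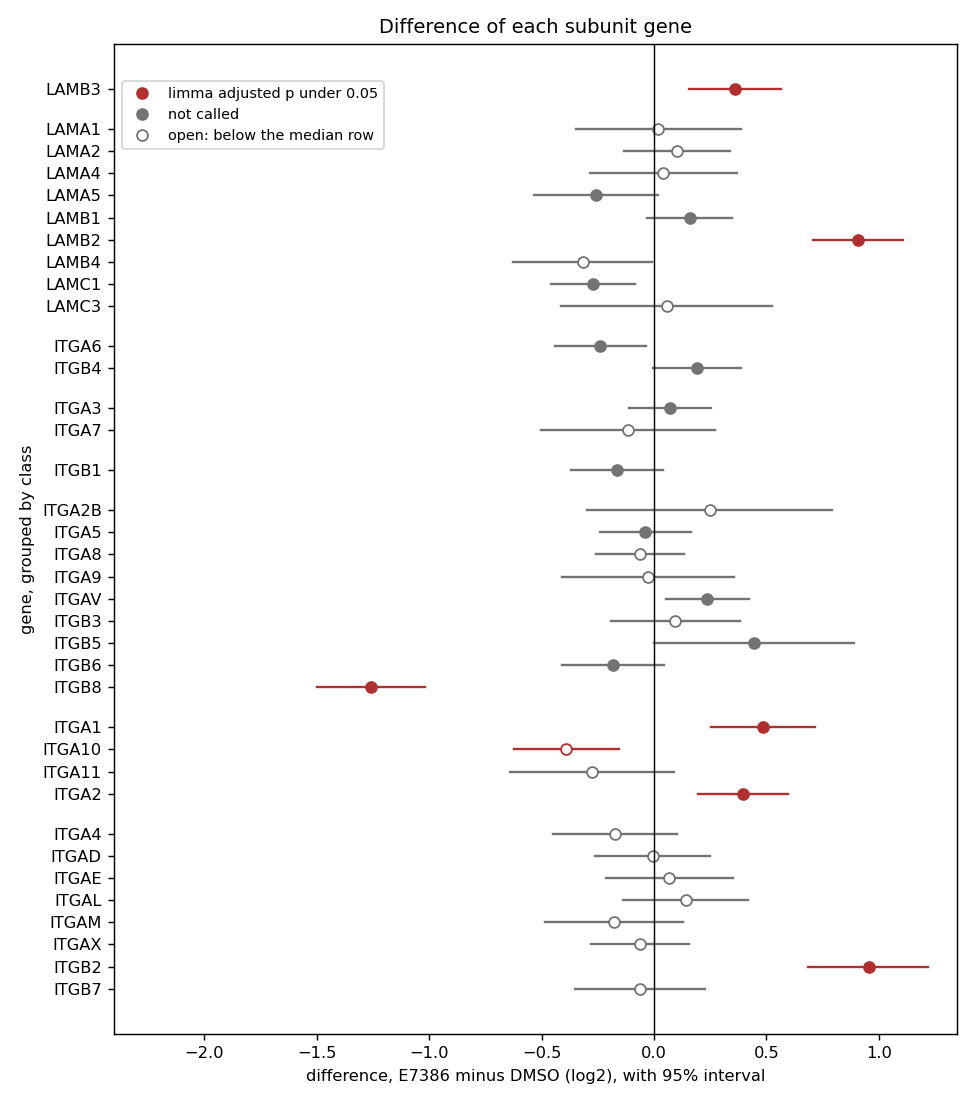
Difference between E7386 and DMSO on the log2 scale (x axis) with its 95% interval for each of the 36 subunit genes (y axis), from the moderated limma fit of 3 against 3 wells; red marks called genes and open circles genes below the median row. ITGB8 lies at -1.26, and LAMB2 and ITGB2 lie at 0.91 and 0.95, apart from the other members, which lie between -0.39 and 0.49.

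The largest change among the members was the fall of ITGB8, the beta subunit that with ITGAV binds latent TGF-β. Its values were 6.41, 6.47 and 6.49 in DMSO and 5.32, 5.03 and 5.25 with E7386. All 3 treated wells lay more than 1 unit below the lowest DMSO well. The difference was -1.26 ± 0.10 (SE), a 2.40-fold fall (95% interval -1.50 to -1.02, limma adjusted p = 2.9e-04). Of all rows, 0.757% fell at least as far. The call held with any one well left out, where the limma adjusted p was 0.0014 to 0.0026.

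The other members of the fibronectin-binding group were not called. ITGAV, the alpha subunit that pairs with ITGB3, ITGB5, ITGB6 and ITGB8, gave 8.0, 8.04 and 8.0 in DMSO and 8.27, 8.24 and 8.23 with E7386. Its groups did not overlap, but the difference of 0.24 ± 0.079 missed the threshold (95% interval, not adjusted for the number of genes, 0.052 to 0.42, limma adjusted p = 0.083). ITGB6, the other TGF-β-activating beta subunit, differed by -0.18 ± 0.097, and the groups overlapped. ITGB5, a vitronectin receptor subunit, gave 6.29, 5.65 and 6.15 in DMSO and 6.71, 6.25 and 6.47 with E7386. With this spread between wells its difference of 0.45 ± 0.19 was not called (limma adjusted p = 0.17).

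ITGA5, the alpha subunit of the main fibronectin receptor, had overlapping groups. Its values were 7.59, 7.48 and 7.61 in DMSO and 7.51, 7.58 and 7.47 with E7386, and the 95% interval of the difference was -0.24 to 0.16. ITGB3, ITGA8, ITGA9 and ITGA2B, which serve other RGD-type or tenascin receptors, lay below the median row in both groups. Over the 9 genes of the group the median difference was -0.026, with 1 fall and no rise. The share called was 11.1%, against 18.6% of all rows.

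Of the 4 collagen-binding integrin genes 2 rose and 1 fell, beside the 18.6% of all rows called in either direction. ITGA2, the alpha subunit of the keratinocyte collagen receptor, rose from 8.85, 8.81 and 8.87 in DMSO to 9.27, 9.29 and 9.15 with E7386. ITGA1, the alpha subunit of the related receptor with a preference for basement membrane collagen, rose from 5.52, 5.38 and 5.25 to 5.90, 5.90 and 5.81. In both genes every treated well lay above every DMSO well. The differences were 0.40 ± 0.085 for ITGA2 (limma adjusted p = 0.016) and 0.49 ± 0.099 for ITGA1 (limma adjusted p = 0.013), rises of 1.32-fold and 1.40-fold.

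These calls stood close to the threshold. That of ITGA2 did not survive the removal of DMSO well 2 (limma adjusted p = 0.0507), and was also lost without well 1 (0.0555) or well 2 (0.0655) of the E7386 group, and that of ITGA1 without E7386 well 2 (0.0528). ITGA10, a collagen receptor subunit of cartilage, was called lower at -0.39 ± 0.10 (limma adjusted p = 0.032), but it lay at 2.19 to 2.38 in DMSO and 1.83 to 2.03 with E7386, in the range where background and expression cannot be told apart. Its call was lost without DMSO well 1 or 2 (limma adjusted p = 0.0879 and 0.0939) and without E7386 well 2 or 3 (0.102 and 0.115). ITGA11, the fourth of the group, was dim and not called.

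None of the 4 laminin-binding integrin genes was called in limma, beside 18.6% of all rows, while 1 had an unadjusted p under 0.05. The 2 of the hemidesmosome differed in opposite directions. ITGA6 gave 10.24, 10.42 and 10.35 in DMSO and 10.10, 10.10 and 10.09 with E7386. ITGB4 gave 9.42, 9.43 and 9.52 in DMSO and 9.66, 9.61 and 9.67 with E7386. ITGA6 was thus lower and ITGB4 higher in each treated well than in any DMSO well. Neither passed the test: the differences were -0.24 ± 0.087 for ITGA6 (limma adjusted p = 0.11) and 0.19 ± 0.083 for ITGB4 (limma adjusted p = 0.17).

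ITGA3, the alpha subunit of the other keratinocyte receptor of laminin-332, gave 10.41 to 10.43 in DMSO and 10.48 to 10.51 with E7386. The groups did not overlap, yet the difference was 0.072 ± 0.078, with a 95% interval of -0.11 to 0.25. ITGB1, the beta subunit it shares with the fibronectin and collagen receptors, gave 9.59, 9.69 and 9.76 in DMSO and 9.47, 9.55 and 9.53 with E7386. Its difference of -0.16 ± 0.088 was not called (limma adjusted p = 0.27). ITGA7, a laminin receptor subunit of muscle, was dim in all wells.

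Of the 10 laminin genes 2 were called, or 20%, a share near the 18.6% of all rows. LAMB2 and LAMB3 rose and none fell, and LAMB2 rose by the larger amount. It encodes a beta chain that can replace LAMB1 in laminins of mature basement membranes. Its values were 5.50, 5.41 and 5.45 in DMSO and 6.45, 6.34 and 6.30 with E7386. The difference was 0.91 ± 0.087, a 1.88-fold rise (limma adjusted p = 5.8e-04), and 1.80% of all rows rose at least as far. It was called with any one well left out.

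LAMB3, the beta chain of laminin-332, rose less. It gave 9.25, 9.26 and 9.37 in DMSO and 9.72, 9.66 and 9.59 with E7386, with no overlap. The difference was 0.36 ± 0.087, a 1.28-fold rise (limma adjusted p = 0.026), and the call held only when DMSO well 3 was the one left out (0.042). It was lost on leaving out any other well, with values between 0.060 and 0.084. The other chains of laminin-332 are not analysed here.

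The chains of the widespread basement membrane laminins were not called. LAMC1, the gamma chain of most laminins, gave 9.72, 9.78 and 9.77 in DMSO and 9.51, 9.48 and 9.46 with E7386. It was lower in all treated wells, at -0.27 ± 0.080, and narrowly missed the threshold (limma adjusted p = 0.053). LAMB1 differed by 0.16 ± 0.081 with no overlap, and LAMA5, the alpha chain of adult epithelial laminins, by -0.26 ± 0.12 with overlap. LAMA1, LAMA2, LAMA4, LAMB4 and LAMC3, chains of embryonic, muscle, vascular and other membranes, lay below the median row and were not called.

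Of the 8 leukocyte integrin genes 1 was called, or 12.5%, against 18.6% of all rows. The other 7 lay below the median row, where 4.0% of all rows were called. ITGB2, the beta subunit of the leukocyte adhesion receptors, rose from 5.25, 4.92 and 4.94 in DMSO to 6.09, 5.95 and 5.93 with E7386. Every treated well lay above every DMSO well. The difference was 0.95 ± 0.12, a 1.94-fold rise (limma adjusted p = 0.0016), and the call held with any one well left out. Of all rows, 1.53% rose at least as far.

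The alpha partners of ITGB2 were not called. ITGAL, ITGAM, ITGAX and ITGAD lay between 1.81 and 2.91 in all 6 wells, below the median row, and their differences ran from -0.18 to 0.14. ITGAE, ITGB7 and ITGA4, which form the other leukocyte dimers, lay between 1.78 and 2.72. ITGB2-AS1, the antisense neighbour of ITGB2, named here after its values were seen, gave 3.07 to 3.20 in DMSO and 2.95 to 3.28 with E7386. The pan-leukocyte gene PTPRC lay at 1.20 to 1.21 in DMSO and 1.27 to 1.51 with E7386. Of the 8 measured leukocyte markers none was called in limma and 1 had an unadjusted p under 0.05, and the sum of their log2 values was 22.8 to 24.4 in DMSO and 21.5 to 24.2 with E7386. Among them CD3E, MS4A1 and LYZ lay between 0.84 and 1.80 in all 6 wells. FCGR3A lay at 1.53 to 2.80, CD79A at 2.99 to 3.57 and CD68 at 8.96 to 9.10. CD14 gave 3.60, 3.58 and 3.71 in DMSO and 3.52, 2.76 and 2.73 with E7386. Its difference of -0.62 ± 0.21 was the 1 with an unadjusted p under 0.05 (limma adjusted p = 0.081).

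Because subunits act as dimers, the balance between partners was taken within each well as the difference of their log2 values. Only its change between groups is read, since fixed differences in probe response cancel there. Compression of differences in dim genes does not cancel. The 10 pairs were compared by an exact two-sided permutation test over the 6 wells, in which 3 against 3 cannot give a p below 0.1. Adjustment cannot lower a p, so none could pass the threshold. With Benjamini-Hochberg adjustment over the pairs the smallest value was 0.167. The plot of partner balance shows all pairs.

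In 6 of the 10 pairs the 2 groups did not overlap, each with an exact p of 0.1. Of single rows, 35.2% did not overlap, and 56.3% of those above the median row. No such share was taken for pairs of other genes. Most pairs share ITGAV or ITGB1, so they are not separate observations. The balance of ITGAV over ITGB8 was 1.59, 1.57 and 1.52 in DMSO and 2.96, 3.21 and 2.98 with E7386, a difference of 1.5. The balance of ITGAV over ITGB6 differed by 0.42, and that over ITGB1 by 0.40. Over ITGB5 and ITGB3 the wells of the groups overlapped, with differences of -0.21 and 0.14. ITGB3 lay below the median row, where expression could not be told from background.

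For the collagen receptor, the balance of ITGA2 over ITGB1 differed by 0.56. For the hemidesmosome, that of ITGA6 over ITGB4 was 0.82, 0.99 and 0.83 in DMSO and 0.44, 0.49 and 0.42 with E7386, a difference of -0.43. The SD of this pair was 0.094 (n = 3) in DMSO and 0.039 with E7386. ITGA3 over ITGB1 differed by 0.24. ITGA6 and ITGA5 over ITGB1 overlapped between groups.

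**Figure D3:**
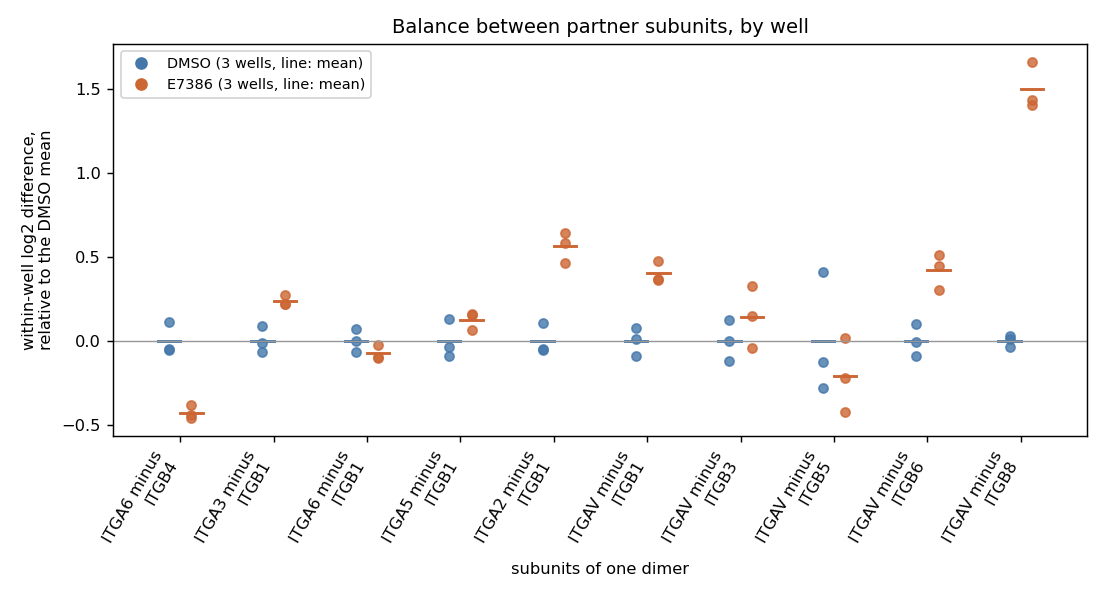
Difference of the log2 values of 2 partner subunits within a well (y axis, shifted so that the DMSO mean of each pair is 0) for 10 integrin pairs (x axis) in 3 DMSO and 3 E7386 wells, each point a well and each line a group mean. ITGAV over ITGB8 lies 1.5 higher with E7386, ITGA6 over ITGB4 lies 0.43 lower with E7386, and the exact p of every pair is at least 0.1.

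Promoters are shown for LAMB2, which rose, and for ITGB8 and ITGA10, the 2 members that fell. That of ITGB2, which rose more than LAMB2, is not shown. They are RefSeq sequences on GRCh38.p14 from 250 bases before to 50 bases after the start of the gene, written on the strand of the gene. LAMB2 is at chr3:49133001-49133300 (minus strand), ITGB8 at chr7:20330650-20330949 (plus strand) and ITGA10 at chr1:145910001-145910300 (minus strand). Capitals mark every match, on either strand, to the TCF/LEF cores CTTTGA and CTTTGT, the AP-1 site TGANTCA, the GC box GGGCGG or the TATA box TATAAA; no matches overlap.
LAMB2: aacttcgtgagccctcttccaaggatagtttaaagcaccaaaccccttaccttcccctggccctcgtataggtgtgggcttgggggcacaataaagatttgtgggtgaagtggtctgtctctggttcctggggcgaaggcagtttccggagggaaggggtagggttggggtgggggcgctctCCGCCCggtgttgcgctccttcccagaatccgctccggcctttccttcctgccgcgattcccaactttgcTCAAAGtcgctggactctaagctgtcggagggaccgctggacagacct
ITGB8: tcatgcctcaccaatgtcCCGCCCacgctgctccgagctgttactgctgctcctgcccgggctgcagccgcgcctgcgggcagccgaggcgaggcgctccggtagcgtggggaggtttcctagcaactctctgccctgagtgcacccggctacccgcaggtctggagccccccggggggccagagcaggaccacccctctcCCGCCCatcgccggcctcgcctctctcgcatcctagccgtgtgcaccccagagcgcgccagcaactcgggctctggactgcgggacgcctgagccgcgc
ITGA10: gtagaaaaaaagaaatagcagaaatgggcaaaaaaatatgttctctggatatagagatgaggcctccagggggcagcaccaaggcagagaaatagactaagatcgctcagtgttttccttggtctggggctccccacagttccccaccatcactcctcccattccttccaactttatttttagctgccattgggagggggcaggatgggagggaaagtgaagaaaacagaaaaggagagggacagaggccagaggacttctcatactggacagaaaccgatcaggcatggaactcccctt

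LAMB2 held 1 TCF/LEF core of the A form and 1 GC box, ITGB8 held 2 GC boxes, and ITGA10 held none of the 5 motifs. The CTTTGA core occurs in 12.9% of 35116 promoters of this length, CTTTGT in 16.1%, the AP-1 site in 7.71%, the GC box in 45.0% and the TATA box in 11.5%. Of the members 25 genes matched, with 32 promoters, and 6 of these held CTTTGA, 3 CTTTGT, 2 the AP-1 site, 18 the GC box and 2 the TATA box. A match describes these letters only and is no evidence of binding.

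Genes that work with the subunits were read in the same way. In 5 lists of ligands, adaptors and partners, 31 of 88 measured genes were called, 19 higher and 12 lower. This is 35.2%, against 18.6% of all rows, and 70 of the 88 lay above the median row, where 33.2% of all rows were called. The median difference over the 88 genes was 0.041. The plot of partner genes shows the 3 long lists.

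The genes of matrix ligands changed in both directions: 7 of 29 rose, 5 fell and the median difference was 0.0038. This is 41.4% called, against 18.6% of all rows and 33.2% of rows above the median row, where 19 of the 29 lay. NTN4, a netrin that binds laminin gamma chains, rose by 1.29 ± 0.082, from 6.52, 6.56 and 6.56 in DMSO to 7.84, 7.89 and 7.77 with E7386. FRAS1, a protein of the sublaminar basement membrane, rose by 1.24 ± 0.089 and TGFB2, which encodes a TGF-β ligand, by 1.24 ± 0.105. LTBP1, which holds latent TGF-β in the matrix and lay below the median row in DMSO, rose by 1.01 ± 0.125, and FBN1, the fibrillin it attaches to, by 1.00 ± 0.11. TNC, the tenascin bound by ITGA9 and ITGAV dimers, rose by 0.92 ± 0.11.

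Lower were FN1, NID1, MFGE8, HSPG2 and CCN1, named in addition after their values were seen. FN1, the ligand of the ITGA5 dimer, fell from 9.02, 9.09 and 9.25 to 8.61, 8.64 and 8.60, by 0.50 ± 0.093 (limma adjusted p = 0.0090). HSPG2, which encodes the basement membrane proteoglycan perlecan, fell by 0.50 ± 0.091, and the bridging protein gene NID1, below the median row, by 0.77 ± 0.12. The call of CCN1 was lost on leaving out any one of the 3 E7386 wells (limma adjusted p = 0.0503 to 0.056).

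On the inner side of the membrane 7 of 33 adaptor and focal adhesion genes rose and 3 fell, with a median difference of 0.078. The share called was 30.3%, against 18.6% of all rows and 33.2% of rows above the median row, where 28 of the 33 lay. TGFB1I1, the paxillin relative Hic-5, rose from 5.30, 5.11 and 5.54 in DMSO to 7.05, 6.88 and 7.08 with E7386, by 1.68 ± 0.13 (limma adjusted p = 2.3e-04). LPXN, another paxillin relative, rose by 0.99 ± 0.13, the scaffold gene GIT1 by 0.79 ± 0.14 and FERMT2, the integrin activator kindlin-2, by 0.70 ± 0.084. NEDD9, a docking protein of focal adhesion kinase, fell by 1.06 ± 0.16 and the tensin gene TNS1, below the median row, by 1.16 ± 0.16.

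Also called were ZYX, PARVA, RSU1 and TNS4, named in addition after their values were seen. ZYX rose by 0.69 ± 0.098, PARVA by 0.54 ± 0.11 and RSU1 by 0.48 ± 0.084, and TNS4 fell by 0.65 ± 0.092. The call of PARVA was lost without E7386 well 2 or 3 (limma adjusted p = 0.0577 and 0.054). TLN1, VCL, PTK2 and ILK were among the adaptor genes not called. The 95% interval of the difference was -0.45 to -0.064 for the talin gene TLN1, -0.10 to 0.33 for the vinculin gene VCL, -0.29 to 0.17 for PTK2, which encodes focal adhesion kinase, and -0.16 to 0.27 for the integrin-linked kinase gene ILK. Paralogs of the paxillin family thus differed in their values: PXN itself was at -0.077 ± 0.089, beside the rises of TGFB1I1 and LPXN. Differences between these genes were not tested.

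Among regulators and membrane partners 5 of 21 rose and 3 fell, with a median difference of 0.052. Called in either direction were 38.1%, against 18.6% of all rows and 33.2% of rows above the median row, where 19 of the 21 lay. PLAUR, the urokinase receptor that associates with integrins, rose by 1.58 ± 0.086. HAX1 rose by 0.63 ± 0.082, the tetraspanin gene CD63 by 0.63 ± 0.10 and SHARPIN, which encodes an inhibitor of integrin activation, by 0.57 ± 0.11. SNX17, which recycles integrins from endosomes, fell by 0.52 ± 0.11 (not called without E7386 well 2, limma adjusted p = 0.0528) and the caveolin gene CAV1 by 0.51 ± 0.089.

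At the hemidesmosome and beside it, 1 of 2 measured non-integrin laminin receptor genes fell, beside 8.69% of all rows called lower. None of PLEC, DST and CD151, the measured linker and tetraspanin genes of the hemidesmosome, was called in limma. All 3 lay above the median row, where 33.2% of all rows were called, and 1 had an unadjusted p under 0.05. The groups did not overlap for DST, at -0.16 ± 0.086, and for CD151, at 0.20 ± 0.083. PLEC, which links ITGB4 to keratin filaments, differed by 0.0024 ± 0.096, with a 95% interval of -0.22 to 0.23. BCAM, a laminin receptor outside the integrin family that binds LAMA5, fell from 6.76, 6.70 and 6.82 in DMSO to 6.24, 6.00 and 6.18 with E7386, by 0.62 ± 0.098 (limma adjusted p = 0.0047).

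**Figure D4:**
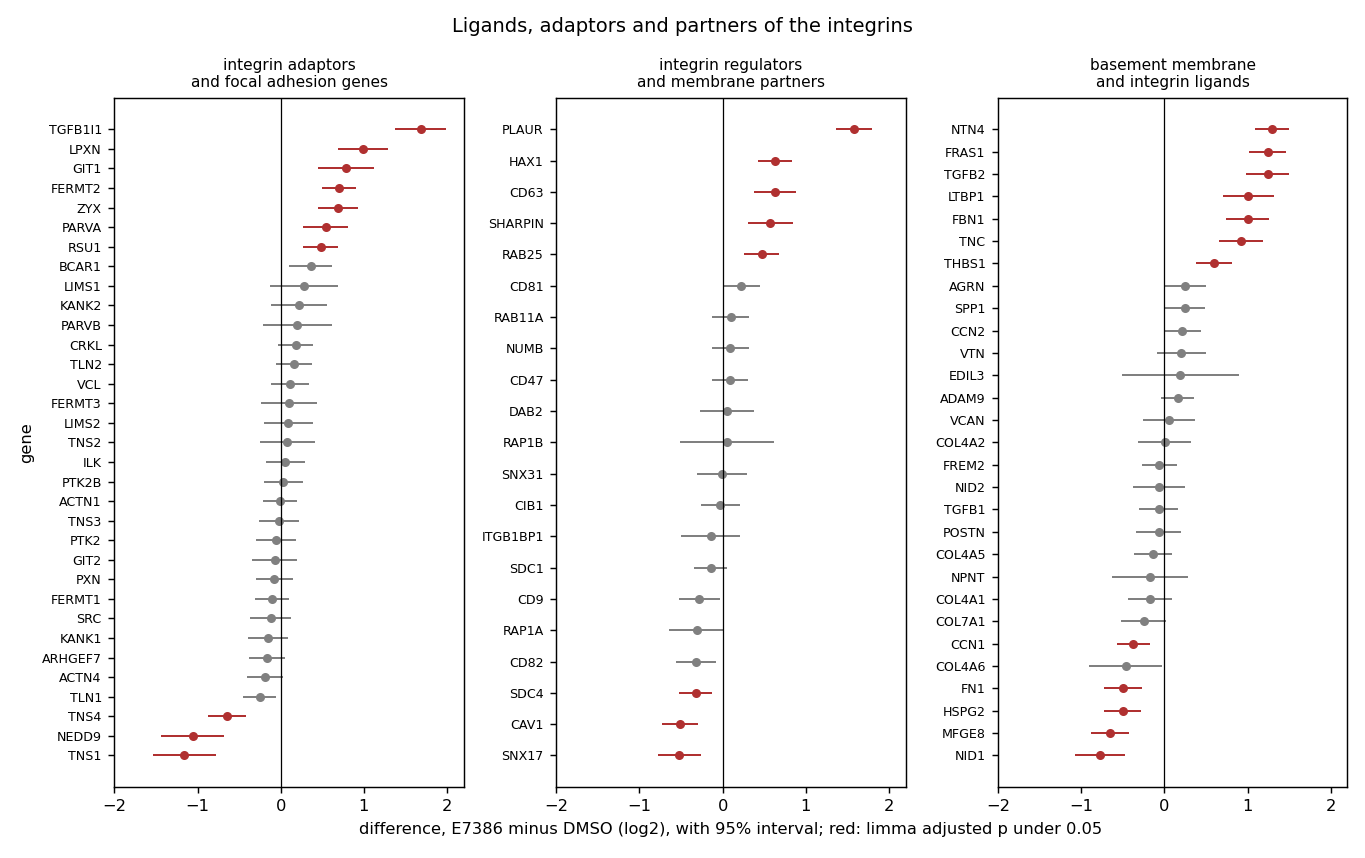
Difference between E7386 and DMSO on the log2 scale (x axis) with its 95% interval for 33 adaptor genes, 21 regulators and 29 ligands (y axes, ordered by difference within each list), from the limma fit of 3 against 3 wells; red marks called genes. Called genes lie on both sides of 0 in every list, with TGFB1I1 at 1.68, PLAUR at 1.58 and NTN4 at 1.29 at the upper ends.

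How many members were called varied with the well left out. Over all rows the share called also fell, from 18.6% to between 12.2% and 15.3%. Of the rises, 5 in the full data, 3 were called without DMSO well 2, 3 without E7386 well 1 and 2 without E7386 well 2. Of the 2 falls, 1 was called without DMSO well 1 or 2 or E7386 well 2 or 3. ITGB8, LAMB2 and ITGB2 were called in every one of these fits.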

How the data were processed

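Whole-transcript arrays with biotin-labelled RNA were available from 6 wells. The deposited values are log2 signals that the authors made with RMA and affy 1.36.1, per the submitters' processing notes. This method removes background, equalises the array distributions by quantile normalization and compresses differences of dim genes, without a detection call. For the probe set definition and the genome build, nothing is given in the sources used here. The table had 23786 rows; the platform annotation named 22458, and the other 1328 stayed in the fits unnamed. All sample columns were used, and none were identical.

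A linear model with treatment as its only term was fitted with limma 3.58.1 in R 4.3.3 to all rows and moderated with eBayes, and two-sided p-values were adjusted by Benjamini-Hochberg over all rows. Differences are E7386 minus DMSO, ± the moderated standard error, with 3 wells a group. The number of arrays limits the precision, with a median SD within groups of 0.15. The fit was tested on simulated data. Members, classes, lists and pairs were chosen with earlier results of these data known. Named genes were all members and, from each partner list, up to 6 called genes with the largest difference. Alternatives were 6 other settings and the leaving out of each of the 6 wells.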

Additional observations from a re-analysis of the deposited data

How the results depend on the processing

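The called members kept their direction in all 12 alternatives, and ITGB8, LAMB2 and ITGB2 also kept their call, as far as each was tested. Leaving out single wells gave 2 to 5 members called higher and 1 to 2 lower, while 12.2% to 15.3% of all rows were called. For ITGA1, ITGA2, LAMB3 and ITGA10 the call was lost in at least 1 such fit. ITGA10 lost its call with an intensity trend and robust prior (limma adjusted p = 0.0658) and has no value where dim rows were left out. Without dim rows LAMC1, ITGA6 and ITGAV were called (limma adjusted p = 0.0116, 0.0317 and 0.0201), as they were with the trend (0.00165, 0.00724 and 0.0106), which also called ITGB4 (0.0208); LAMC1 was called with array weights too (0.0476). The dim-row filter left 11893 rows over which p is adjusted; the cause of the other changes was not tested.

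Sign changes occurred in 9 members that were not called and lay below the median row. Array weights gave -0.017 for LAMA1 and -0.015 for LAMC3, and renewed quantile normalization gave 0.0097 for ITGA9 and 0.035 for ITGAD. Leaving out single wells gave -0.081 to 0.17 for LAMA1, -0.085 to 0.18 for LAMA4, -0.15 to 0.20 for LAMC3, -0.23 to 0.023 for ITGA7, -0.19 to 0.069 for ITGA9, -0.010 to 0.19 for ITGB3, -0.082 to 0.091 for ITGAD, -0.040 to 0.14 for ITGAE and -0.13 to 0.058 for ITGB7.

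The labels state no link between wells with the same replicate number beyond that number. Deviations of such wells from the group means correlated at 0.051, 0.12 and -0.0077 over all rows, and 4 of 6 wells correlated best with their own number. With the replicate block 5 members were called higher and 2 lower: LAMB3 was not called (limma adjusted p = 0.0677) and ITGB5 was (0.0405). The partner lists gave 18 to 23 genes higher and 9 to 16 lower over all alternatives. No partner pair changed direction under renewed quantile normalization or with a well left out. The pairs with the unnamed laminin chains were not run.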
